A study of Mus musculus with 87 samples.

Results

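Liver transcripts 20 h after partial hepatectomy (PH) were compared with those 20 h after sham surgery, using the 6 post-PH livers (X20) and the 3 post-sham livers (S20) among 87 labelled samples of a mouse liver regeneration time course. All mice were C57BL/6 males of 12 to 14 weeks, trained to eat only in the dark, and every liver was sequenced on its own as poly(A) RNA. The X20 mice lost most of the liver early in the light period, and the S20 mice had the abdomen opened under the same isoflurane anaesthesia without resection, so that both groups share anaesthesia, laparotomy and the clock time of collection late in the dark, feeding period. Mice were operated on and killed 3 at a time. The 6 X20 livers came in threes from 2 experimental periods. The 3 S20 livers came from 1 of these, so that they share a period with 3 of the X20 livers and not with the other 3, and the sources used here do not say which replicate numbers belong to each X20 period. The p values rest on a spread between livers of the same group that was pooled over all 80 libraries in 19 groups. The S20 livers share a single session of surgery, which cannot be told apart from the sham group itself.

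After PH, hepatocytes that were at rest leave quiescence, pass through a long G1 phase, replicate their DNA and then divide, while the remaining tissue keeps up the metabolic and secretory work of the whole organ. In mice, DNA synthesis usually begins on the second day after surgery, so that livers collected in the first day are mostly in G1. Cyclin D1 is the classical marker of the passage through G1, and the minichromosome maintenance (Mcm) proteins are loaded onto replication origins before DNA synthesis starts.

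The deposited values are log2 RPKM (reads scaled to transcript length and to the mapped reads of the library), so levels of different genes are compared per length. Estimated depth was 14.7, 20.6 and 15.3 M (mega) reads in the S20 libraries and 20.9 to 30.2 M reads in the X20 libraries, so the sham libraries were the shallower ones. Across genes, libraries correlated at r = 0.986 to 0.988 within S20, 0.977 to 0.991 within X20 and 0.970 to 0.983 between the groups. The liver label was checked against its markers: Alb, which encodes albumin, stood at 22753, 24072 and 25683 RPKM in the S20 livers and from 17468 to 23873 RPKM in the X20 livers, with a median of 20925, and the 14 hepatocyte markers summed to 44686 to 47766 RPKM in S20 and 34863 to 45325 RPKM in X20. Of 15 markers of the pancreas, which lies close to the operated site, 10 were at 0 in all 9 libraries and the whole list summed to 6.69 to 10.1 RPKM in S20 and 3.17 to 9.34 RPKM in X20. The 17 Kupffer cell and macrophage markers summed to 64.1 to 86.3 RPKM in S20 and 39.1 to 111 RPKM in X20, and the 11 neutrophil markers to 1.59 to 12.7 RPKM and 1.43 to 13.5 RPKM. In pieces of whole liver, fewer cells of a type and less RNA per cell cannot be told apart.

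Of 15396 genes tested with limma, 1094 (7.11%) differed between X20 and S20 with a log2 fold change past 0.5 in either direction and an adjusted p of less than 0.05. Such genes are referred to as called. Transcripts of 692 genes rose (4.49% of the genes tested) and those of 402 genes fell (2.61%). Here and throughout, a log2 fold change is the mean of X20 minus the mean of S20 on the log2(RPKM + 0.25) scale, given with its standard error, and it understates the change of genes with low values. No overlap between the 6 X20 and the 3 S20 livers was seen for 871 of the called genes. Among all genes tested, all 6 X20 livers lay above all 3 S20 livers for 1643 genes (10.7%) and below them for 939 genes (6.1%). The median log2 fold change over all genes was 0.07. At an unadjusted p below 0.05, with no fold threshold, there were 4118 of the 15396 genes. Counts of list members at that p are to be read beside this share. When all libraries were set to the same median, 447 genes were higher (2.9%) and 587 lower (3.81%), so that the share of rises among the called genes went from 63.3% to 43.2%, and 848 of the 1094 genes were called under both scalings. The counts moved with the sham liver left out: without S20 replicate 1 the number called was 625 (364 higher and 261 lower), without S20 replicate 2 it was 765 (506 higher and 259 lower), and without S20 replicate 3 it was 1068 (745 higher and 323 lower).

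The leading genes were taken from called genes whose groups did not overlap and whose mean was above 0 on the log2 RPKM scale in at least 1 group, so that the lack of overlap is part of the choice. The 12 largest rises among them included secreted proteins, regulators of the cell cycle and proteins of the cell surface. Reg3b headed them (ENSMUSG00000071356, chr6:78320879-78323460, plus strand). It encodes a secreted C-type lectin with antibacterial activity and stood at 0.36, 0.954 and 1.12 RPKM in the S20 livers and from 4.62 to 191 RPKM in the X20 livers, with a median of 14.8. The 6 PH livers exceeded the 3 sham livers and ranged widely among themselves. The log2 fold change was 4.31 ± 0.73 (adjusted p = 4.7e-05). Reads of Reg3b may be shared with its near-identical relatives of the Reg3 family. Ly6d (ENSMUSG00000034634, chr15:74592486-74593997, minus strand), a membrane-anchored protein of the Ly6 family, was measured at 1.68, 1.75 and 2.26 RPKM in the S20 livers and from 6.74 to 76.8 RPKM in the X20 livers, with a median of 12.7. PH replicates 5 and 6 were the highest, at 37.7 and 76.8 RPKM, and the log2 fold change was 2.97 ± 0.52 (adjusted p = 6.8e-05).

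Igfbp1 (ENSMUSG00000020429, chr11:7097785-7102549, plus strand) encodes an insulin-like growth factor binding protein that the liver secretes in fasting and after injury. Its level was 11, 25.7 and 14.9 RPKM in the S20 livers and from 35.2 to 572 RPKM in the X20 livers, with a median of 85.2. PH replicate 5, at 572 RPKM, stood far above the other PH livers, the groups did not overlap, and the log2 fold change was 2.64 ± 0.61 (adjusted p = 0.0023). In the resting livers of 0 h, collected at a different clock time, it ranged from 32.4 to 131 RPKM, with a median of 53.1.

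A pair of these rises bears on the G1 phase. Ccnd1 (ENSMUSG00000070348, chr7:152115836-152125774, minus strand), which encodes cyclin D1, stood at 1.74, 1.75 and 2.45 RPKM in the S20 livers and from 5.95 to 24.7 RPKM in the X20 livers, with a median of 11.5. The 3 sham values were close together, every PH liver lay well above them, and PH replicates 1 to 3 (24.7, 15.5 and 14 RPKM) were above replicates 4 to 6 (8.27, 5.95 and 9.02 RPKM). The log2 fold change was 2.42 ± 0.37 (adjusted p = 5.6e-06). Cdkn1a (ENSMUSG00000023067, chr17:29227924-29237667, plus strand), which encodes the cyclin-dependent kinase inhibitor p21, stood at 4.64, 2.5 and 4.14 RPKM in the S20 livers and from 12.5 to 44.7 RPKM in the X20 livers, with a median of 18.7. Here PH replicates 5 and 6 were the highest. The log2 fold change was 2.56 ± 0.66 (adjusted p = 0.0056), and the call ended without S20 replicate 2 (adjusted p = 0.051).

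Several genes with low levels after sham also rose. Thbd (ENSMUSG00000074743, chr2:148230207-148233924, minus strand), which encodes thrombomodulin, the endothelial cofactor of the anticoagulant protein C, went from 0.441, 0.805 and 0.596 RPKM in S20 to 2.29 to 4.59 RPKM in X20, a log2 fold change of 2.10 ± 0.25 (adjusted p = 3.3e-08). Bmper (ENSMUSG00000031963, chr9:23027520-23289646, plus strand), a secreted regulator of bone morphogenetic proteins, stood at 0.198, 0.14 and 0.155 RPKM after sham and 0.516 to 4.69 RPKM (median 1.43) after PH, a log2 fold change of 2.08 ± 0.35 (adjusted p = 4.9e-05). Syt12 (ENSMUSG00000049303, chr19:4445908-4477447, minus strand), of the synaptotagmin family, stood at 0.665, 0.497 and 0.412 RPKM after sham and 1.85 to 4.2 RPKM (median 2.68) after PH. Its spread within each group was small beside the gap between them, and its log2 fold change was 2.01 ± 0.24 (adjusted p = 3.3e-08). Cidec (ENSMUSG00000030278, chr6:113374628-113385754, minus strand), a lipid droplet protein that promotes droplet growth, was measured at 0.184, 0.234 and 0.281 RPKM after sham and 0.577 to 12.9 RPKM (median 1.75) after PH, a log2 fold change of 2.26 ± 0.55 (adjusted p = 0.0037). Sult1e1 (ENSMUSG00000029272, chr5:88004993-88020636, minus strand), which encodes estrogen sulfotransferase, was at 0 in S20 replicates 1 and 3 and at 0.115 RPKM in replicate 2, against 0.227 to 9.91 RPKM in X20 (adjusted p = 0.0021). The remaining members of the leading 12 were Nipal1 (ENSMUSG00000067219, chr5:73039035-73062317, plus strand) with a log2 fold change of 1.98 ± 0.45 (adjusted p = 0.0020) and 3930402G23Rik (ENSMUSG00000038917, chr8:10924427-10928457, minus strand) with 2.61 ± 0.45 (adjusted p = 5.3e-05).

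**Figure D1:**
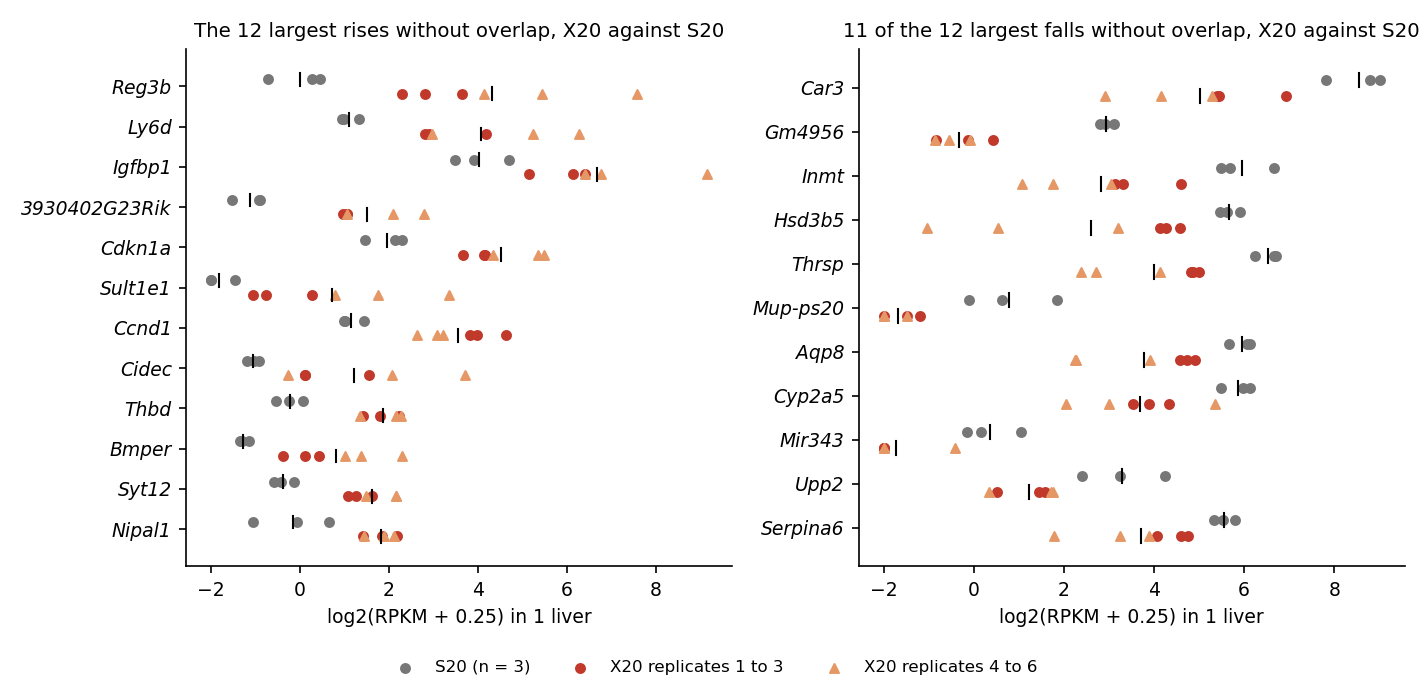
RPKM of the 12 genes that rose most and of 11 of the 12 that fell most among called genes without overlap between the groups, one row per gene, on a log axis with 0.25 added. Each point is one liver (3 S20, 6 X20). Car3 runs from 224 to 517 RPKM after sham and from 7.27 to 121 RPKM after PH.

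The 12 largest falls included abundant products of resting hepatocytes. Car3 (ENSMUSG00000027559, chr3:14863538-14872351, plus strand), which encodes carbonic anhydrase 3, stood at 517, 443 and 224 RPKM in the S20 livers and from 7.27 to 121 RPKM in the X20 livers, with a median of 40.2. Replicate 3 was the lowest of the sham livers and the highest of the PH livers, but every PH value lay below every sham value, and the log2 fold change was -3.52 ± 0.55 (adjusted p = 9.1e-06). In the resting livers of 0 h (C0, 9 livers), which were collected at a different clock time, its median was 1738 RPKM, above all 3 sham values. Inmt (ENSMUSG00000003477, chr6:55120620-55125037, minus strand), an N-methyltransferase acting on indole amines, showed a similar order, with a resting median of 279.6 RPKM, then 51.4, 101 and 44.6 RPKM after sham and 1.85 to 23.8 RPKM (median 8.24) after PH, and a log2 fold change of -3.13 ± 0.53 (adjusted p = 4.7e-05). Gm4956 (ENSMUSG00000025936, chr1:21275327-21288393, minus strand), a predicted gene, had the smallest adjusted p of all genes tested. It stood at 6.66, 7.25 and 8.34 RPKM after sham and 0.303 to 1.1 RPKM (median 0.551) after PH, a log2 fold change of -3.27 ± 0.31 (adjusted p = 2.0e-11).

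Thrsp (ENSMUSG00000035686, chr7:104561448-104566240, minus strand), which encodes the Spot14 protein that promotes fatty acid synthesis, stood at 75.1, 100.5 and 104 RPKM in the S20 livers and from 4.95 to 31.7 RPKM in the X20 livers, with a median of 22.7. PH replicates 5 and 6 were the lowest and the log2 fold change was -2.54 ± 0.54 (adjusted p = 0.00088). Aqp8 (ENSMUSG00000030762, chr7:130605808-130611517, plus strand), a water channel of hepatocytes, stood at 50.8, 66.8 and 69.9 RPKM after sham and 4.5 to 29.7 RPKM (median 19.2) after PH, a log2 fold change of -2.18 ± 0.48 (adjusted p = 0.0013).

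Hsd3b5 (ENSMUSG00000038092, chr3:98422559-98434232, minus strand), a male-predominant steroid reductase whose reads may be shared with close relatives, stood at 60.1, 49 and 43.6 RPKM in the S20 livers and from 0.239 to 23.5 RPKM in the X20 livers, with a median of 13.1. The PH livers ranged widely, with replicate 6 at 0.239 and replicate 3 at 23.5 RPKM, and the log2 fold change was -3.06 ± 0.77 (adjusted p = 0.0045). The other leading falls were those of Mup-ps20 (ENSMUSG00000084309, chr4:61673446-61675891, minus strand), a pseudogene of the major urinary proteins, Cyp2a5 (ENSMUSG00000005547, chr7:27620324-27628567, plus strand), a cytochrome P450 that oxidises coumarin and nicotine, Upp2 (ENSMUSG00000026839, chr2:58419709-58645382, plus strand), a uridine phosphorylase, Serpina6 (ENSMUSG00000060807, chr12:104884840-104895422, minus strand), the plasma carrier of corticosteroids, and Mir343 (ENSMUSG00000076315, chr7:19971992-19972066, plus strand), a microRNA gene of the deposited table. Their log2 fold changes were -2.48, -2.17, -2.07, -1.83 and -2.09. Mir343 rests on few reads and lost its call without S20 replicate 1 (adjusted p = 0.10), whereas the other 10 falls shown and the rises other than that of Cdkn1a stayed called whichever single liver was left out. With PH replicates 1 to 3 alone against sham, Hsd3b5 (-1.34, adjusted p = 0.22) and Aqp8 (-1.22, adjusted p = 0.086) were not called by limma. With replicates 4 to 6 alone they changed by -4.77 and -3.15. Car3, Inmt, Gm4956, Mup-ps20 and Cyp2a5 were called lower with either set.

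The whole table was then read through 54 lists of genes, for pathways, functions of the organ and cell types. Called rises outnumbered called falls in DNA replication (18 higher and 1 lower of 38 members), ribosome biogenesis (13 and 0 of 43), acute-phase plasma proteins (7 and 0 of 27), stellate cell and matrix markers (7 and 0 of 20) and breakdown of amino acids (7 and 1 of 34), beside 4.49% higher and 2.61% lower among all genes. Falls outnumbered rises in the growth hormone and IGF axis (1 and 7 of 26), fatty acid synthesis (1 and 6 of 24), cytochrome P450 families 1 to 4 (0 and 6 of 51) and cholesterol synthesis (0 and 4 of 24). In 11 lists no member was called.

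**Figure D2:**
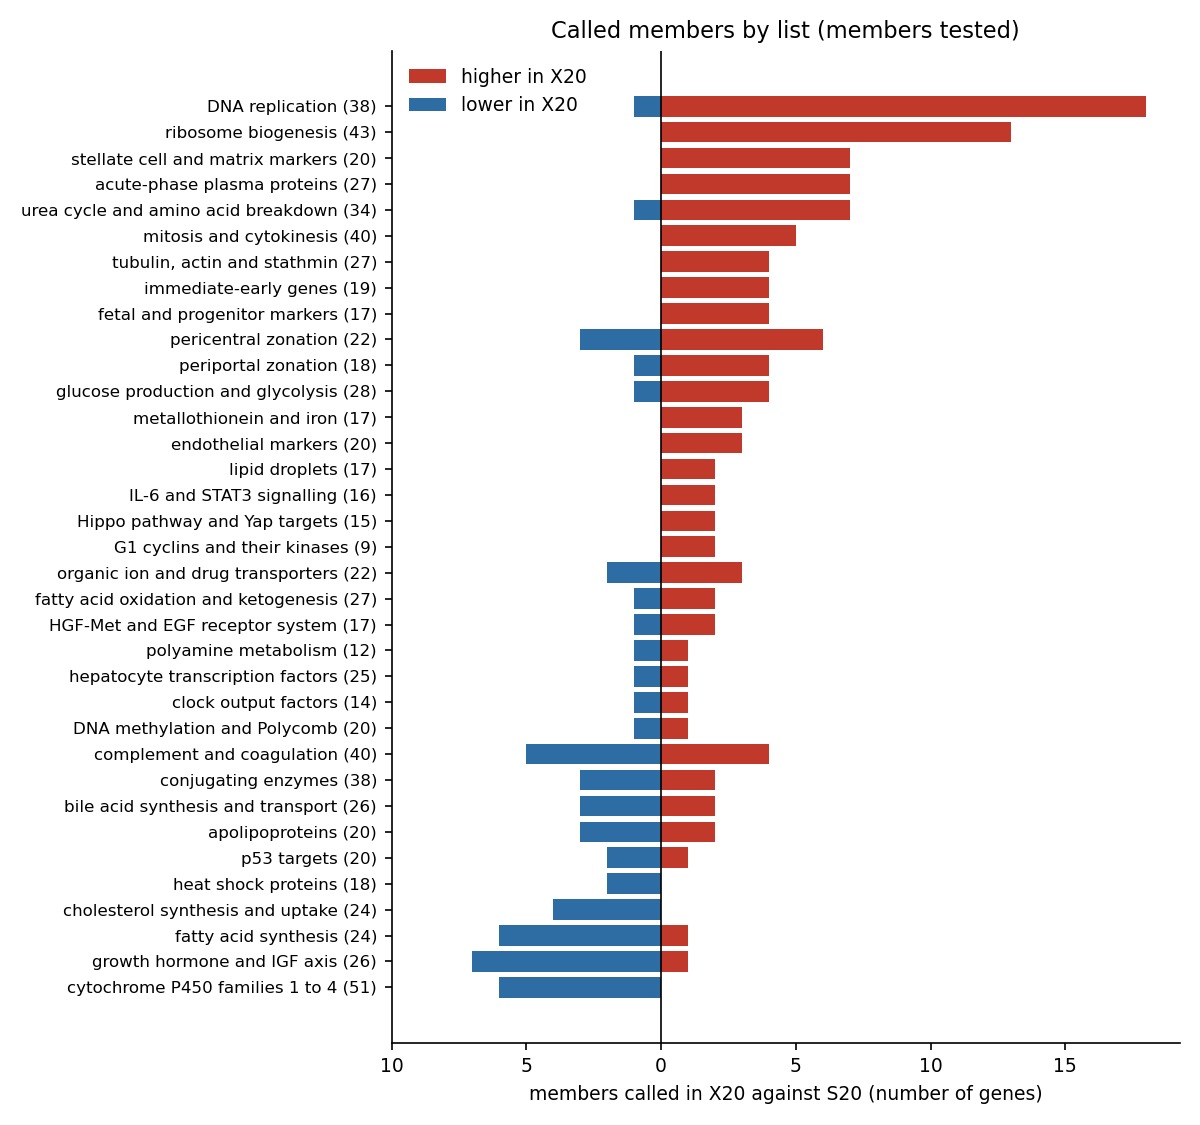
Number of members called higher (right) and lower (left) in X20 than in S20 for each gene list with more than 1 called member. The number of members tested is beside each name. DNA replication has 18 members called higher and 1 called lower, and the growth hormone and IGF axis has 7 called lower.

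Of the 9 G1 cyclins and their kinases, 2 rose (22.2%, beside 4.49% of all genes), with a median log2 fold change of 0.43 for the list beside 0.07 for all genes. Beside Ccnd1, transcripts of Ccne1, whose cyclin E1 product activates Cdk2 at the end of G1, rose from 0.18, 0.181 and 0.123 RPKM to a median of 0.612 RPKM (range 0.416 to 1.08), a log2 fold change of 1.15 ± 0.24 (adjusted p = 0.00084). Ccnd2 and Ccne2 did not pass the test, with log2 fold changes of 0.48 ± 0.20 (adjusted p = 0.10) and 0.46 ± 0.23 (adjusted p = 0.17). Among 13 E2F factors and pocket proteins 1 was called (7.69%, beside 7.11% of all genes). This was Rbl1, which encodes the pocket protein p107 (0.71 ± 0.21, adjusted p = 0.015). Its PH replicate 5 lay below all 3 sham livers and the other 5 above them. The call of Rbl1 ended without S20 replicate 1 or 2 (highest adjusted p = 0.079). E2f1, a driver of S-phase genes, had a log2 fold change of 0.30 ± 0.22 (adjusted p = 0.40).

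DNA replication held 19 called members, more than any other of the 54 lists, although without S20 replicate 3 ribosome biogenesis held more (17 higher, beside 9 higher and 1 lower for replication). Of its 38 members 18 rose and 1, Tk1, fell, and the median log2 fold change was 0.57. Mcm5 and Mcm6, subunits of the Mcm2-7 helicase, had the largest changes. Mcm5 (ENSMUSG00000005410, chr8:77633427-77652338, plus strand) stood at 0.39, 0.635 and 0.205 RPKM in the S20 livers and from 0.587 to 4.21 RPKM in the X20 livers, with a median of 2.65. PH replicates 1 to 4 lay at 2.05 RPKM or above, whereas replicates 5 and 6 were at 0.746 and 0.587 RPKM, next to the highest sham liver. The log2 fold change was 1.79 ± 0.37 (adjusted p = 0.00076). Mcm6 (ENSMUSG00000026355, chr1:130228168-130256233, minus strand) stood at 0.875, 1.14 and 0.523 RPKM in the S20 livers and from 1.17 to 6.31 RPKM in the X20 livers, with a median of 4.62, with the same 4 PH livers high and replicates 5 and 6 (1.17 and 1.2 RPKM) barely above the sham value of 1.14 RPKM. Its log2 fold change was 1.71 ± 0.35 (adjusted p = 0.00073).

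Since these members lead a list of genes that share regulators in the textbook account, the stretches upstream of both are shown. Known sites of E2F factors, which regulate S-phase genes, have the letters TTTCCCGC, TTTCGCGC, TTTGCCGC or TTTGGCGC. These were searched on both strands from 250 bases before to 50 bases after the start of each gene in RefSeq (GRCm38.p6). The stretches were located in mm9, the build of the deposited table. Capitals mark the matches, which overlap one another where the run of capitals is longer than a single motif, as TTTCGCGC on one strand and TTTGGCGC on the other. The Mcm5 stretch is chr8:77633225-77633296, plus strand, from 183 to 112 bases before the RefSeq start, and the Mcm6 stretch is chr1:130256292-130256422, minus strand, from 140 to 10 bases before it.
Mcm5: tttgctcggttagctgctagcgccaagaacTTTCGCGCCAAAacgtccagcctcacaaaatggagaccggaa
Mcm6: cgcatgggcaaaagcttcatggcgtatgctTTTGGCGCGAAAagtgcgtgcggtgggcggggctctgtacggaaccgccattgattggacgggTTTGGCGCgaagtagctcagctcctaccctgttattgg
At least 1 of these 4 motifs was found in 13 of the 31 promoters of the replication list that matched the RefSeq table (41.9%), in 4.59% of the 9206 promoters of tested genes that matched and in 2.26% of all 32851 promoters. Among the called rises of the list, 6 of 14 matched promoters held one (42.9%), much the same share as in the list as a whole. Among all called genes that matched, 26 of 428 rises (6.07%) and 5 of 261 falls (1.92%) held one. These are matches of letters, not measured binding.

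The remaining rises of the list included Mcm2 (log2 fold change of 1.16 ± 0.28, adjusted p = 0.0037), Mcm3 (1.19 ± 0.31, adjusted p = 0.0063), Mcm4 (1.03 ± 0.28, adjusted p = 0.0083), the ribonucleotide reductase subunit Rrm2 (1.17 ± 0.39, adjusted p = 0.036) and Uhrf1, which guides maintenance methylation to newly made DNA (1.04 ± 0.28, adjusted p = 0.0091). In each of these 5 the PH livers overlapped the sham livers. Mcm7 and Pcna, the replication clamp, did not pass the test, with 0.50 ± 0.20 (adjusted p = 0.086) and 0.41 ± 0.18 (adjusted p = 0.12). Tk1, which encodes the thymidine kinase of S phase, went the other way: it stood at 3.27, 3.79 and 2.36 RPKM in the S20 livers and from 0.466 to 1.63 RPKM in the X20 livers, with a median of 1.22, below the sham livers in all 6, with a log2 fold change of -1.38 ± 0.23 (adjusted p = 4.5e-05). At rest its median was 3.21 RPKM. The count of rises in this list was 9 without S20 replicate 3 and 24 without PH replicate 5. The calls of Mcm3 and Uhrf1 ended without S20 replicate 3, that of Mcm4 without S20 replicate 2 or 3, and that of Rrm2 without any one of PH replicates 1 to 3 or of the sham livers (highest adjusted p from 0.062 to 0.13), while those of Mcm2, Mcm5, Mcm6 and Tk1 stayed.

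Of 40 members of the mitosis list 5 rose (12.5%, beside 4.49% of all genes), none fell, and the median log2 fold change was 0.27. They were Spc25, a kinetochore subunit (0.75 ± 0.22, adjusted p = 0.017), Ect2, which activates RhoA for cytokinesis (0.92 ± 0.28, adjusted p = 0.021), Cdk1, the mitotic kinase (0.86 ± 0.27, adjusted p = 0.024), Top2a, topoisomerase II alpha (0.86 ± 0.28, adjusted p = 0.030), and Ccna2, cyclin A2 (0.81 ± 0.28, adjusted p = 0.043). Their levels were low: Ccna2 stood at 0.0389, 0.0551 and 0.0372 RPKM in the S20 livers and from 0.0468 to 0.503 RPKM in the X20 livers, with a median of 0.314. Cdk1 stood at 0.139, 0.14 and 0.133 RPKM in the S20 livers and from 0.203 to 0.804 RPKM in the X20 livers, with a median of 0.463. PH replicates 1 to 3 were the highest for both. Spc25 was an exception, with replicate 6 the highest at 2.01 RPKM. The 40 members summed to 41.7 to 46.9 RPKM in S20 and 35.2 to 55.3 RPKM in X20. In the resting livers, collected at another clock time, they summed to 43.3 to 66.9 RPKM. There Cdk1 ranged from 0.176 to 0.941 RPKM and Ccna2 from 0.0532 to 0.607 RPKM. The proliferation marker Mki67 (0.63 ± 0.28, adjusted p = 0.12) and the mitotic regulators Cdc20 (0.62 ± 0.37, adjusted p = 0.27), Plk1 (0.27 ± 0.28, adjusted p = 0.58), Ccnb2 (0.16 ± 0.33, adjusted p = 0.81) and Bub1 (0.19 ± 0.17, adjusted p = 0.51) did not pass the test. No member of this list was called by limma without S20 replicate 1 or without S20 replicate 3. In these fits 9 and 7 members had an unadjusted p below 0.05, beside 3064 and 3771 of all 15396 genes. The 5 rises were not called with a pseudocount of 1, and Ccna2 was not called with all libraries set to the same median.

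The PH livers, in 2 sets of 3, were then compared by replicate number. Against the same 3 sham livers, PH replicates 1 to 3 had 1063 genes higher (6.9%) and 298 lower (1.94%), and PH replicates 4 to 6 had 429 higher (2.79%) and 449 lower (2.92%). In the direct comparison of the sets with one another, which was chosen after the data were seen, 218 genes were higher in replicates 1 to 3 (1.42%) and 69 higher in replicates 4 to 6 (0.448%). Whether the numbers follow the sessions of surgery is not stated, nor which set shares the period of the sham livers, so period and liver cannot be told apart here.

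Among the lists, DNA replication had the most members that differed between the sets. Of its 38 members 29 were higher and 1 lower than sham in replicates 1 to 3, against 0 higher and 1 lower by limma in replicates 4 to 6. In replicates 4 to 6, 8 members had an unadjusted p below 0.05, beside 3195 of all 15396 genes. In the direct test 17 members were higher in replicates 1 to 3 than in 4 to 6. The summed level of the list was 46.0, 49.4 and 41.8 RPKM in the sham livers and 102, 86.6 and 85.7 RPKM in PH replicates 1 to 3. It was 68.1 RPKM in replicate 4, but 43.5 and 45.5 RPKM in replicates 5 and 6, inside the range of the sham livers. Mcm5 was higher in replicates 1 to 3 than in 4 to 6 by 1.66 on the log2 scale (adjusted p = 0.010), Mcm6 by 1.48 (adjusted p = 0.017) and Uhrf1 by 1.64 (adjusted p = 7.9e-05). Ccnd1 was called against sham in both sets, with log2 fold changes of 3.01 and 1.84.

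In the acute-phase list 1 of 27 members, Saa3, was higher in replicates 4 to 6 in the direct test and none in 1 to 3. Saa3, an inflammatory serum amyloid A, stood at 141, 241 and 199 RPKM after sham, at 72.3, 171 and 100.0 RPKM in PH replicates 1 to 3 and at 2659, 3055 and 4149 RPKM in replicates 4 to 6. All livers of the second set lay above every other liver, and the difference of the sets (1 to 3 minus 4 to 6) was -4.91 ± 0.77 (adjusted p = 7.9e-05). Over all 6 PH livers Saa3 did not pass the test (1.64 ± 0.85, adjusted p = 0.21). Cebpb, Cebpd and A2m were chosen after their values were seen. The first pair encodes transcription factors of the acute-phase response and the last an acute-phase protease inhibitor. Cebpd stood at 1.36, 1.74 and 1.05 RPKM in replicates 1 to 3 and 4.85, 6.71 and 11.8 RPKM in replicates 4 to 6, beside 1.33, 1.55 and 2.27 RPKM after sham. The differences of the sets were -2.22 for Cebpd (adjusted p = 0.0025), -1.86 for Cebpb (adjusted p = 0.037) and -3.32 for A2m (adjusted p = 0.035).

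**Figure D3:**
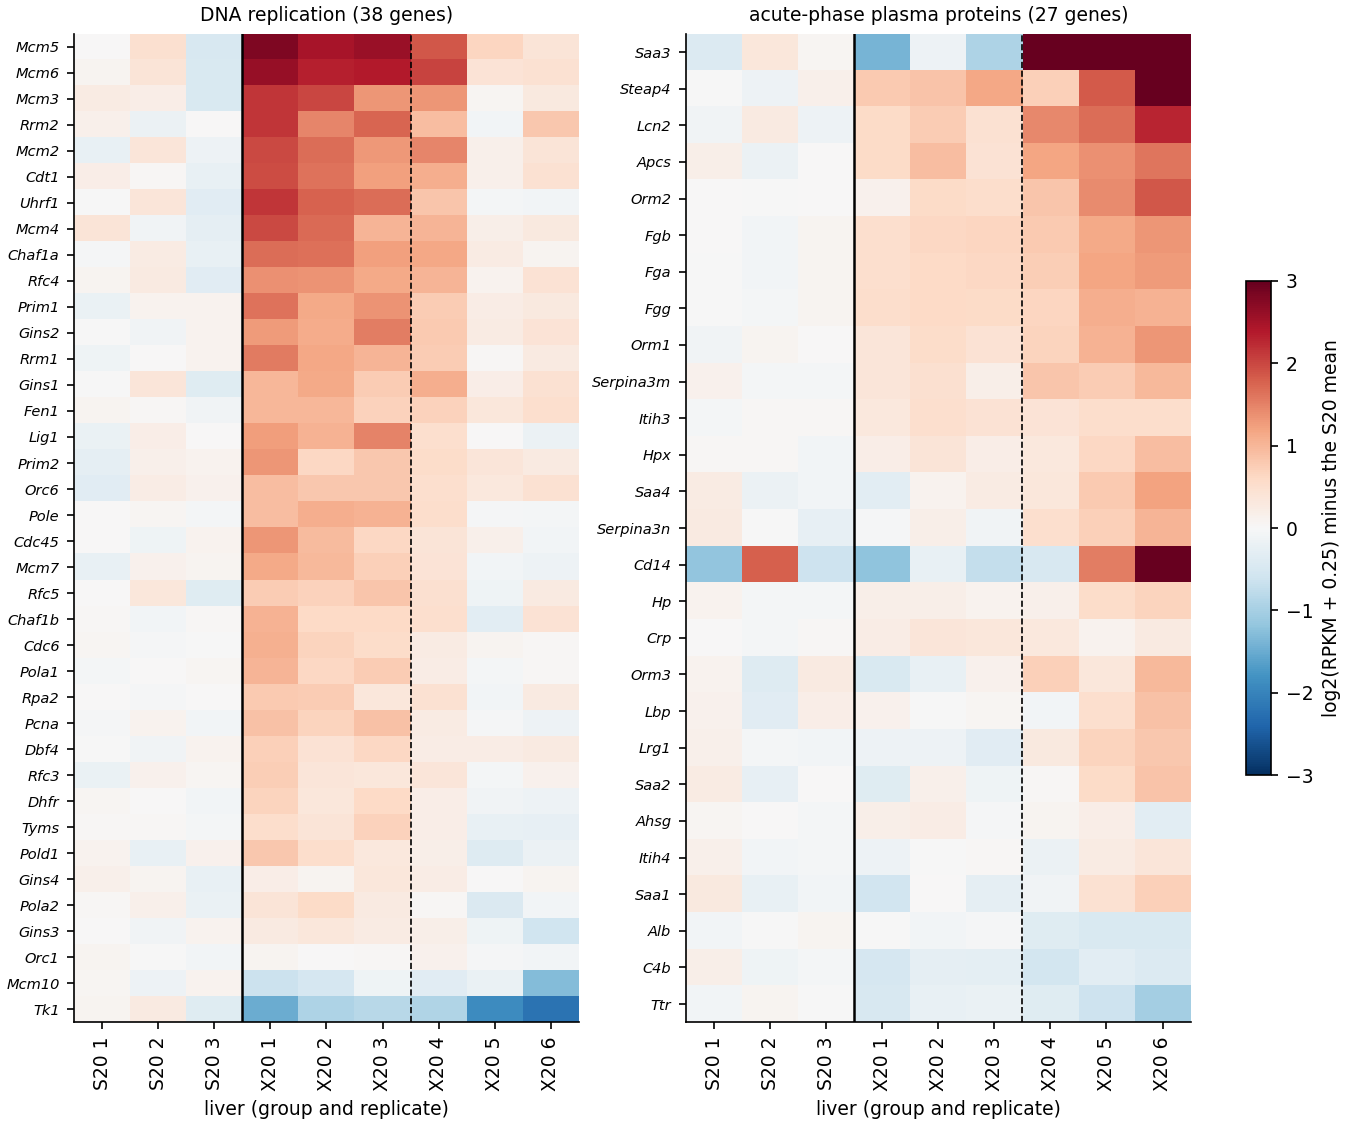
Each column is one liver and each row one gene of the DNA replication list (38 genes, left) or the acute-phase list (27 genes, right), and the colour gives log2(RPKM + 0.25) minus the mean of the 3 S20 livers, with colours saturated at 3 in either direction. The solid line parts S20 from X20 and the dashed line parts X20 replicates 1 to 3 from 4 to 6, where most replication genes are higher in replicates 1 to 4 and Saa3 is higher in replicates 4 to 6.

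Of 27 acute-phase plasma proteins, 7 rose over all 6 PH livers and none fell, with a median log2 fold change of 0.38. The 3 fibrinogen chains, which form the clot and are among the most abundant hepatocyte products, rose together. Fga stood at 3055, 2894 and 3249.6 RPKM in the S20 livers and from 4362 to 7443 RPKM in the X20 livers, with a median of 4912, without overlap. The log2 fold changes were 0.82 ± 0.19 (adjusted p = 0.0024) for Fga, 0.84 ± 0.20 (adjusted p = 0.0028) for Fgb and 0.75 ± 0.20 (adjusted p = 0.0068) for Fgg. Apcs, which encodes serum amyloid P, rose as well (1.02 ± 0.30, adjusted p = 0.018), as did Steap4, a metalloreductase (1.43 ± 0.43, adjusted p = 0.020), with PH replicate 6 at 486 RPKM and the sham livers at 51.6, 46.2 and 57.7 RPKM. The main serum amyloid A genes, Saa1 and Saa2, whose reads may be shared, were not called. Saa1 stood at 18078, 12594 and 13899 RPKM in the S20 livers and from 9926 to 23964 RPKM in the X20 livers, with a median of 14160.1, while its median in the resting livers was 61.7 RPKM, so that sham and PH livers alike were far above rest. For Saa2 the resting median was 22.1 RPKM and the log2 fold change of X20 against S20 was 0.18 ± 0.68 (adjusted p = 0.91).

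In replicates 1 to 3 taken alone no acute-phase gene was called against sham by limma. There 6 members had an unadjusted p below 0.05, beside 4259 of all 15396 genes. In replicates 4 to 6 there were 8 higher and 1 lower (beside 2.79% and 2.92% of all genes). Without PH replicate 6 or without S20 replicate 2, 3 of the 7 rises were left. The fibrinogen calls held whichever liver was left out, whereas those of Apcs and Steap4 did not (highest adjusted p = 0.097 and 0.087), both among others without PH replicate 6. In the list of 16 genes for IL-6 and STAT3 signalling 2 rose (12.5%, beside 4.49% of all genes). These were Il1r1, the receptor of interleukin 1 and not of IL-6 (1.43 ± 0.43, adjusted p = 0.018), and Osmr, the receptor of oncostatin M (0.70 ± 0.20, adjusted p = 0.015). Neither was called without S20 replicate 1 or without S20 replicate 2. None of 30 chemokine and interferon response genes was called (3 at an unadjusted p below 0.05, beside 4118 of all 15396 genes). Of 17 metallothionein and iron genes 3 rose (17.6%, beside 4.49% of all genes) and none fell. Tfrc, the transferrin receptor through which cells take up iron, stood at 5.45, 3.01 and 3.17 RPKM in the S20 livers and from 7 to 12.5 RPKM in the X20 livers, with a median of 9.07, and rose by 1.22 ± 0.27 (adjusted p = 0.0013) on the log2 scale. Cp, the ferroxidase ceruloplasmin, stood at 148, 156 and 180.2 RPKM after sham and 239.6 to 359 RPKM (median 278) after PH and rose by 0.84 ± 0.19 (adjusted p = 0.0014). Both stayed called whichever liver was left out.

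Growth factors and their receptors were read next. Of 17 genes of the HGF-Met and EGF receptor system, 2 rose and 1 fell (17.6% called, beside 7.11% of all genes), with a median log2 fold change of 0.06. Hgf, the hepatocyte growth factor made by stellate and endothelial cells, stood at 1.07, 1.1 and 1.21 RPKM in the S20 livers and from 2.09 to 3.66 RPKM in the X20 livers, with a median of 2.88. Every PH liver was above every sham liver, and the log2 fold change was 1.16 ± 0.25 (adjusted p = 0.00088). Hgfac, a plasma protease that activates HGF, stood at 88.8, 76.2 and 67.1 RPKM in the S20 livers and from 42.7 to 51.5 RPKM in the X20 livers, with a median of 47.4, without overlap, a log2 fold change of -0.70 ± 0.16 (adjusted p = 0.0015). Tgfa, a ligand of the EGF receptor, rose by 0.58 ± 0.17 (adjusted p = 0.018), but was not called without PH replicate 6, without S20 replicate 2 or with all libraries set to the same median. Of 23 genes in the TGF-beta list 1 was called (4.35%, beside 7.11% of all genes). This was Inhbb, an activin subunit (1.12 ± 0.24, adjusted p = 0.00096).

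Some genes of Wnt signalling, which acts on hepatocytes around the central vein, were among the rises. In the endothelial list 3 of 20 members were higher (15%, beside 4.49% of all genes) and none lower, and these 3 were Rspo3, which amplifies Wnt signals, Wnt9b and Wnt2. Rspo3 stood at 0.941, 2 and 1.44 RPKM in the S20 livers and from 2.33 to 3.81 RPKM in the X20 livers, with a median of 3.18, without overlap, and its log2 fold change was 1.03 ± 0.18 (adjusted p = 5.8e-05). Wnt2 gave 0.99 ± 0.24 (adjusted p = 0.0035) and Wnt9b 0.79 ± 0.19 (adjusted p = 0.0026). Wnt2 lost its call without S20 replicate 1 (adjusted p = 0.079). The summed level of 21 endothelial markers was 34.5 to 41.7 RPKM in S20 and 34.5 to 51.2 RPKM in X20.

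Axin2, a general target of Wnt signalling, stood at 1.75, 1.52 and 1.2 RPKM in the S20 livers and from 1.68 to 3.75 RPKM in the X20 livers, with a median of 2.99. PH replicate 5, at 1.68 RPKM, overlapped the sham livers and the other 5 did not. The log2 fold change was 0.84 ± 0.20 (adjusted p = 0.0028). In the list of pericentral genes, 6 of 22 rose and 3, Cyp2a5, Cyp27a1 and Rhbg, fell (40.9% called, beside 7.11% of all genes). The rises were those of Axin2, Lhpp, a phosphatase (1.33 ± 0.20, adjusted p = 4.5e-06), Oat, which degrades ornithine (1.71 ± 0.26, adjusted p = 5.6e-06), Slc1a4, a neutral amino acid transporter (1.18 ± 0.27, adjusted p = 0.0018), Znrf3, which removes Wnt receptors from the membrane (0.59 ± 0.15, adjusted p = 0.0063), and the secreted Lect2 (0.61 ± 0.17, adjusted p = 0.013). Lect2 was not called without S20 replicate 3 (adjusted p = 0.13), nor Znrf3 without PH replicate 3 or S20 replicate 1 (highest adjusted p = 0.051). Classical pericentral genes that did not pass the test were Glul, glutamine synthetase, with a log2 fold change of -0.06 ± 0.19 (adjusted p = 0.88), and Cyp2e1, a cytochrome P450 that oxidises ethanol, with -0.34 ± 0.20 (adjusted p = 0.28).

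Among 20 stellate cell and matrix markers 7 rose and none fell, with a median log2 fold change of 0.45. Col4a1, a chain of the basement membrane collagen IV, stood at 2.88, 3.86 and 3.04 RPKM in the S20 livers and from 7.25 to 17.8 RPKM in the X20 livers, with a median of 9.07, and its log2 fold change was 1.55 ± 0.25 (adjusted p = 1.7e-05). Col4a2, from the neighbouring gene that shares its promoter region, rose by 0.96 ± 0.19 (adjusted p = 0.00052), Des, the intermediate filament desmin, by 0.86 ± 0.19 (adjusted p = 0.0017), and Pdgfra, a receptor of platelet-derived growth factor, by 0.86 ± 0.21 (adjusted p = 0.0030). Dcn, decorin, rose by 0.79 ± 0.20 (adjusted p = 0.0040). In all 5 the groups did not overlap. Col1a1, the fibrillar collagen of scars, was not called (0.41 ± 0.46, adjusted p = 0.62). The list summed to 66.0 to 109 RPKM in S20 and 107 to 147 RPKM in X20, beside 99.4 to 175 RPKM in the resting livers. Without S20 replicate 1, 4 of the 7 rises were left, with Dcn among those lost (adjusted p = 0.076).

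Of 19 immediate-early genes, 4 rose (21.1%, beside 4.49% of all genes): Egr1 (2.44 ± 0.68, adjusted p = 0.011), Jun (1.28 ± 0.37, adjusted p = 0.015), Klf4 (0.83 ± 0.21, adjusted p = 0.0055) and Fosl2 (0.80 ± 0.21, adjusted p = 0.0074), all transcription factors that respond quickly to growth signals. Egr1 stood at 0.837, 1.55 and 0.64 RPKM in the S20 livers and from 0.988 to 18.7 RPKM in the X20 livers, with a median of 8.27. PH replicate 4, at 0.988 RPKM, lay inside the sham range and the other 5 lay above it. None of the 4 was called by limma without S20 replicate 1, where 4 members had an unadjusted p below 0.05, beside 3064 of all 15396 genes. Myc had values of 0.502, 1.16 and 0.72 RPKM in the S20 livers and from 1.17 to 3.69 RPKM in the X20 livers, with a median of 1.52, without overlap, but did not pass the test (0.98 ± 0.40, adjusted p = 0.097).

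Of 43 ribosome biogenesis genes 13 rose and none fell, with a median log2 fold change of 0.38. Mrto4, an assembly factor of the large subunit, rose by 0.56 ± 0.11 (adjusted p = 0.00047), Ddx21, a nucleolar RNA helicase, by 0.66 ± 0.13 (adjusted p = 0.00052), Tsr1, a factor of small subunit maturation, by 0.73 ± 0.17 (adjusted p = 0.0024), and Nop58, of the box C/D particles that methylate ribosomal RNA, by 0.83 ± 0.20 (adjusted p = 0.0037). For Ddx21 the values were 5.58, 5.43 and 6.71 RPKM in the S20 livers and from 8.23 to 11.4 RPKM in the X20 livers, with a median of 9.46. The groups did not overlap for any of these. The number called was 5 without S20 replicate 1 and 5 with all libraries set to the same median, under which Mrto4 was no longer called. Nop58 was among those lost without S20 replicate 1 (adjusted p = 0.088). By contrast none of 58 cytosolic ribosomal protein genes was called (median log2 fold change 0.11, 14 at an unadjusted p below 0.05), and neither was any of 31 proteasome subunits (0.14, with 5 at that p) or 26 genes of the unfolded protein response (0.22, with 5). Among all 15396 genes tested, 4118 were at that p. The fit with robust variances gave none in these 3 lists either. Among 27 genes of the cytoskeleton 4 rose (14.8%, beside 4.49% of all genes), with a median of 0.47. They included the tropomyosins Tpm1 (0.84 ± 0.15, adjusted p = 0.00010) and Tpm4 (0.89 ± 0.23, adjusted p = 0.0073). Tpm4 was not called without S20 replicate 1 (adjusted p = 0.10), and in its absence 1 of the 4 rises was left.

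In fatty acid and cholesterol synthesis nearly all called members fell. Of 24 fatty acid synthesis genes 6 fell and 1 rose, and the median log2 fold change was -0.35. Srebf1, whose product SREBP-1 activates these genes in the fed state, stood at 31, 31.1 and 30.9 RPKM in the S20 livers and from 5.62 to 17.3 RPKM in the X20 livers, with a median of 14.5. The sham livers were nearly identical, all PH livers were lower, and the log2 fold change was -1.45 ± 0.38 (adjusted p = 0.0069). Acss2, which makes acetyl-CoA from acetate, stood at 21.8, 28.3 and 20.1 RPKM after sham and 4.3 to 10.9 RPKM (median 7.47) after PH and changed by -1.70 ± 0.43 (adjusted p = 0.0046). Acly, ATP citrate lyase (-1.08 ± 0.35, adjusted p = 0.033), Fasn, fatty acid synthase (-1.11 ± 0.38, adjusted p = 0.041), and Mlxipl, whose product ChREBP responds to glucose (-0.90 ± 0.28, adjusted p = 0.022), also fell, but each lost its call without S20 replicate 1 or S20 replicate 3, and others (highest adjusted p = 0.10, 0.18 and 0.082). The exception among the falls was Insig2, which retains SREBP in the endoplasmic reticulum. It stood at 56.1, 37.9 and 67 RPKM in the S20 livers and from 73.9 to 146 RPKM in the X20 livers, with a median of 118, and rose by 1.11 ± 0.27 (adjusted p = 0.0038), though not without S20 replicate 2 (adjusted p = 0.070). Without S20 replicate 1 or without S20 replicate 3, 3 of the 6 falls of this list were left.

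In cholesterol synthesis and uptake 4 of 24 members fell and none rose, and the median log2 fold change was -0.64. Sc5d, a late enzyme of the pathway, stood at 214, 249 and 246 RPKM in the S20 livers and from 60.9 to 160.1 RPKM in the X20 livers, with a median of 125, and changed by -1.10 ± 0.28 (adjusted p = 0.0053). Insig1 changed by -1.40 ± 0.41 (adjusted p = 0.015), Pmvk, phosphomevalonate kinase, by -1.21 ± 0.35 (adjusted p = 0.016), and Acat2 by -0.68 ± 0.21 (adjusted p = 0.020). The falls were graded over the PH livers: Insig1 was at 141, 118 and 102 RPKM in replicates 1 to 3 and 78.2, 58.9 and 30.4 RPKM in replicates 4 to 6. Against sham, no member was called by limma in replicates 1 to 3 (1 at an unadjusted p below 0.05, beside 4259 of all 15396 genes). In replicates 4 to 6, 9 members were lower (beside 2.92% of all genes). In the direct test of the sets 1 member of the list was called. Without PH replicate 6, without S20 replicate 1 or without S20 replicate 3, 1 of the 4 falls was left, and of the 4 Sc5d alone stayed called in all 9 of these fits.

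Of 17 lipid droplet genes 2 rose (11.8%, beside 4.49% of all genes), Cidec and Cd36, the fatty acid transporter (0.96 ± 0.32, adjusted p = 0.036), of which Cd36 was called neither with all libraries set to the same median nor without PH replicate 6 or any one sham liver (highest adjusted p = 0.14). Plin2, which coats the droplets of hepatocytes, stood at 102, 85.7 and 97.3 RPKM in the S20 livers and from 97.6 to 222 RPKM in the X20 livers, with a median of 164, and did not pass the test (0.74 ± 0.28, adjusted p = 0.065). Angptl4, a secreted inhibitor of lipoprotein lipase that is made in fasting, stood at 15.8, 11.4 and 10.1 RPKM in the S20 livers and from 19.2 to 63.3 RPKM in the X20 livers, with a median of 33, and rose by 1.48 ± 0.39 (adjusted p = 0.0074). It was among 2 rises and 1 fall in 27 genes of fatty acid oxidation and ketogenesis (11.1% called, beside 7.11% of all genes, and 7 rises without PH replicate 4), a list with a median of 0.39.

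In glucose metabolism 4 of 28 members rose and 1 fell (17.9% called, beside 7.11% of all genes). Pck1, phosphoenolpyruvate carboxykinase, the control point of gluconeogenesis, stood at 214, 261 and 174 RPKM in the S20 livers and from 355 to 980.1 RPKM in the X20 livers, with a median of 601. All PH livers were higher, and the log2 fold change was 1.45 ± 0.35 (adjusted p = 0.0032). Ldha, lactate dehydrogenase A, rose by 0.71 ± 0.16 (adjusted p = 0.0018). G6pc, the last enzyme of glucose release, ranged from 51 to 212 RPKM after PH and did not pass the test (0.85 ± 0.45, adjusted p = 0.22). Cycs, cytochrome c, was the only called gene of 55 in the respiratory chain list (1.82%, beside 7.11% of all genes). It stood at 19.6, 21.8 and 20 RPKM in the S20 livers and from 29.7 to 40.2 RPKM in the X20 livers, with a median of 34.1, a log2 fold change of 0.74 ± 0.10 (adjusted p = 2.8e-07).

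Of 34 genes for the urea cycle and amino acid breakdown 7 rose and 1 fell, but the median log2 fold change was 0.0023, below the 0.07 of all genes, and with all libraries set to the same median 4 rose. The largest rise was that of Oat, which stood at 143, 91.8 and 105 RPKM in the S20 livers and from 267 to 505 RPKM in the X20 livers, with a median of 343. Sdsl, a serine dehydratase, stood at 5.24, 5 and 5.57 RPKM in the S20 livers and from 8.01 to 24.7 RPKM in the X20 livers, with a median of 13.4, with PH replicates 4 to 6 above 1 to 3, and rose by 1.32 ± 0.26 (adjusted p = 0.00039). Aass, of lysine breakdown, stood at 44.8, 47.3 and 49.3 RPKM after sham and 79.3 to 99.2 RPKM (median 89.4) after PH and rose by 0.92 ± 0.18 (adjusted p = 0.00050). Cps1, carbamoyl phosphate synthetase, the entry enzyme of the urea cycle, stood at 376, 408 and 333 RPKM in the S20 livers and from 572 to 957 RPKM in the X20 livers, with a median of 631, and rose by 0.85 ± 0.20 (adjusted p = 0.0027). Arg1, arginase, rose by 0.56 ± 0.15 (adjusted p = 0.010), although not without PH replicate 6 or with all libraries set to the same median. Otc, ornithine transcarbamylase, the enzyme after Cps1, fell: it stood at 60.2, 66.9 and 57.5 RPKM in the S20 livers and from 24.4 to 55.7 RPKM in the X20 livers, with a median of 45.6, a log2 fold change of -0.57 ± 0.14 (adjusted p = 0.0040). Its log2 fold change came to less than the threshold in size without PH replicate 6.

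Among enzymes of drug and steroid metabolism, falls outnumbered rises. Of 51 cytochrome P450 genes of families 1 to 4 none rose and 6 fell, with a median log2 fold change of -0.24. Cyp2f2, a periportal enzyme, stood at 352, 361 and 381 RPKM in the S20 livers and from 90.7 to 305 RPKM in the X20 livers, with a median of 214, and changed by -0.95 ± 0.20 (adjusted p = 0.00065), and Cyp2d40 by -0.99 ± 0.18 (adjusted p = 0.00014). Cyp2a4, whose reads may be shared with the near-identical Cyp2a5, changed by -1.70 ± 0.46 (adjusted p = 0.0081), but was not called without S20 replicate 2 (adjusted p = 0.051). In replicates 4 to 6 alone 14 members were lower than sham (beside 2.92% of all genes) and none higher. In replicates 1 to 3 alone 4 were lower and 2 higher (beside 1.94% and 6.9% of all genes). The direct test of the sets called 9 of the 51 higher in replicates 1 to 3 (beside 1.42% of all genes). One of these was Cyp2c44, at 67, 59.3 and 90.1 RPKM in replicates 1 to 3 and 38.7, 29.1 and 17.9 RPKM in replicates 4 to 6. Without S20 replicate 2 the number of falls in the list was 3.

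Of 38 conjugating enzymes 2 rose and 3 fell (13.2% called, beside 7.11% of all genes). The share of rises, 5.26%, was near the 4.49% of all genes. Gsta3, a glutathione transferase, stood at 752, 819 and 781 RPKM in the S20 livers and from 200.2 to 473 RPKM in the X20 livers, with a median of 331, without overlap, and changed by -1.27 ± 0.18 (adjusted p = 2.5e-06). Sult1a1, a phenol sulfotransferase, rose by 0.79 ± 0.18 (adjusted p = 0.0020). The bile acid list had 2 higher and 3 lower of 26 (19.2% called, beside 7.11% of all genes). Abcb4, the canalicular transporter of phosphatidylcholine, stood at 40.3, 38.8 and 39.5 RPKM in the S20 livers and from 54 to 87.6 RPKM in the X20 livers, with a median of 69.1, and rose by 0.80 ± 0.17 (adjusted p = 0.00068). Slc27a5, which joins bile acids to coenzyme A, changed by -0.59 ± 0.12 (adjusted p = 0.00039) and Cyp27a1, of the alternative synthesis pathway, by -0.57 ± 0.14 (adjusted p = 0.0042). The call of Cyp27a1 ended without PH replicate 6 or S20 replicate 2 (highest adjusted p = 0.056). Cyp7a1, the rate-limiting enzyme of bile acid synthesis, varied within both groups (20.3, 41.6 and 8.01 RPKM after sham and 8.56 to 73.6 RPKM after PH, median 17) and was not called (0.16 ± 0.60, adjusted p = 0.91).

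The growth hormone and IGF list had 7 falls and 1 rise among 26 members. Apart from Hsd3b5 and Cyp2a4, the named falls were those of major urinary proteins, pheromone carriers that male livers secrete under growth hormone and whose reads may be shared among copies. Mup20 stood at 3639, 6309.7 and 6645 RPKM in the S20 livers and from 775 to 2924 RPKM in the X20 livers, with a median of 2775, and changed by -1.36 ± 0.34 (adjusted p = 0.0043), and Mup3 stood at 6646, 7318 and 6866 RPKM in the S20 livers and from 2998 to 4549 RPKM in the X20 livers, with a median of 4192, and changed by -0.78 ± 0.17 (adjusted p = 0.0013). Mup7 and Mup1 changed by -1.58 and -1.42, but neither was called without S20 replicate 1 or without S20 replicate 2. Igf1 itself, the hormone made in response to growth hormone, was not called (0.28 ± 0.14, adjusted p = 0.18). Without S20 replicate 2 there were 3 falls in the list.

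Factors that set hepatocyte identity were called at about the share of all genes. Of 25 transcription factors 1 rose and 1 fell (8% called, beside 7.11% of all genes). The fall was that of Cebpa, which stood at 78.1, 82.2 and 96.6 RPKM in the S20 livers and from 35.9 to 54.6 RPKM in the X20 livers, with a median of 44.9. No PH liver reached the lowest sham value, and the log2 fold change was -0.97 ± 0.18 (adjusted p = 0.00019). Hnf4a was not called (0.07 ± 0.17, adjusted p = 0.84). Of the 18 core clock genes 1, Per3, was called (5.56%, beside 7.11% of all genes). It stood at 0.49, 0.638 and 0.36 RPKM in the S20 livers and from 0.113 to 0.28 RPKM in the X20 livers (median 0.148). Its log2 fold change was -0.84 ± 0.17 (adjusted p = 0.00075). Arntl, which encodes BMAL1, and Nr1d1, which encodes REV-ERB alpha, were not called, with 0.16 ± 0.20 (adjusted p = 0.67) and -0.22 ± 0.55 (adjusted p = 0.85). Tef, a clock output factor, fell too, with a log2 fold change of -0.86 ± 0.24 (adjusted p = 0.013), and was not called without S20 replicate 1 or 2. The p53 list had 1 rise, that of Cdkn1a, and 2 falls among 20 members (15% called, beside 7.11% of all genes). One of the falls was that of Bbc3, which encodes the pro-apoptotic protein PUMA and stood at 4.01, 3.58 and 3.12 RPKM in the S20 livers and from 1.12 to 2.04 RPKM in the X20 livers, with a median of 1.55, a log2 fold change of -1.08 ± 0.29 (adjusted p = 0.0074). It was not called without S20 replicate 1 (adjusted p = 0.061). Of 18 heat shock genes 2 fell (11.1%, beside 2.61% of all genes). They were Hspa1b, whose reads may be shared with Hspa1a (-1.52 ± 0.51, adjusted p = 0.039) and Dnajb1 (-0.70 ± 0.23, adjusted p = 0.032), both with sham replicate 3 the highest and with overlap between the groups. Neither was called without S20 replicate 1, S20 replicate 3 or PH replicate 4 (highest adjusted p = 0.29 and 0.43). In the other lists with a call there were 4 higher and 5 lower of 40 complement and coagulation genes (22.5% called, with the 3 fibrinogen chains among the rises), 2 and 3 of 20 apolipoproteins (25%), 3 and 2 of 22 drug transporters (22.7%), 4 and 1 of 18 periportal genes (27.8%) and 4 and 0 of 17 fetal and progenitor markers (23.5%), beside 7.11% of all genes. The 4 fetal and progenitor rises were Ly6d, Reg3b, Reg3g and Reg3a, and reads may be shared among the Reg3 genes. The median log2 fold change of that list was -0.04, below the 0.07 of all genes. In the remaining lists there were 2 and 0 of 15 Hippo pathway genes (13.3% called), 1 and 1 of 12 polyamine genes (16.7%) and 1 and 1 of 20 DNA methylation and Polycomb genes (10%). There were also 0 and 1 of 15 Nrf2 genes (6.67%, near the 7.11% of all genes) and 0 and 1 of 5 erythroid markers (20%). No member was called in the lists of Kupffer cell, neutrophil, B and T cell, cholangiocyte, pancreas acinar, skeletal muscle, and mesothelium and adipose markers, where at most 1 member of a list had an unadjusted p below 0.05 and the robust fit called none.

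The PH-to-sham difference at 20 h was next set against that at 10 h, around the end of the light period, and at 48 h, with no library shared between the differences. Between 10 h and 20 h, 16 genes (0.104%) had a different response, of which 13 were higher at 20 h. At an unadjusted p below 0.05 there were 1446, and with all libraries set to the same median 11 were called, 5 of them higher at 20 h. The largest of the 16 was that of Cyp7a1, whose log2 fold change was -3.62 at 10 h and 0.16 at 20 h, a difference of 3.79 ± 0.84 (adjusted p = 0.038). Saa4, a serum amyloid A that is made without inflammation too, went from -1.41 to 0.39 (adjusted p of the difference = 0.048). Lgr5, the R-spondin receptor of pericentral hepatocytes, went from -0.78 to 0.45 (adjusted p = 0.032). Trim24, Enpp3, Dnajc12 and Cbfa2t3 were also among the 16 and were chosen after their values were seen, with differences of 1.38, 1.83, 1.65 and -1.41. For Ccnd1 the log2 fold change was 1.22 at 10 h and 2.42 at 20 h, a difference that did not pass the test (adjusted p = 0.42).

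The 48 h livers of both groups came from the period that the 20 h sham livers did not, so that period and time cannot be told apart in this difference. Between 20 h and 48 h the response differed for 2032 genes, of which 1932 were higher at 48 h (12.5%) and 100 lower (0.65%). With all libraries set to the same median the number was 1450, with 696 higher and 754 lower, and the median of this difference over all genes went from 0.21 to -0.10. In the mitosis list 39 of 40 members were higher at 48 h, with a median difference of 4.27. Cdc20 went from 0.62 at 20 h to 7.04 at 48 h, Plk1 from 0.27 to 5.98, Ccnb2 from 0.16 to 6.31 and Mki67 from 0.63 to 5.25. Their differences under the same median were 6.05, 5.34, 5.77 and 4.26. In the replication list 28 of 38 members were higher at 48 h. The counts of both lists are with the scaling as deposited. For Mcm5, Mcm2 and Mcm7 the differences of 1.76, 1.25 and 1.27 became 1.41, 0.89 and 0.88 under the same median. Tk1, lower than sham at 20 h, had a log2 fold change of 1.23 at 48 h (adjusted p of the difference = 4.3e-09), and Rbl1 went from 0.71 to 2.86.

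Igfbp1 and Pck1 were high at 20 h and not at 48 h. Igfbp1 went from 2.64 to -1.29 (adjusted p of the difference = 0.00072) and Pck1 from 1.45 to -0.66 (adjusted p = 0.0016). The urea cycle and amino acid list had 11 of 34 members lower and 2 higher at 48 h than at 20 h with the scaling as deposited, beside 0.65% and 12.5% of all genes. For Cdkn1a the log2 fold change was 2.56 at 20 h and 0.48 at 48 h, but the difference did not pass the test (adjusted p = 0.13). Ccnd1 was at 2.42 and 2.62 (adjusted p = 0.86).

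**Figure D4:**
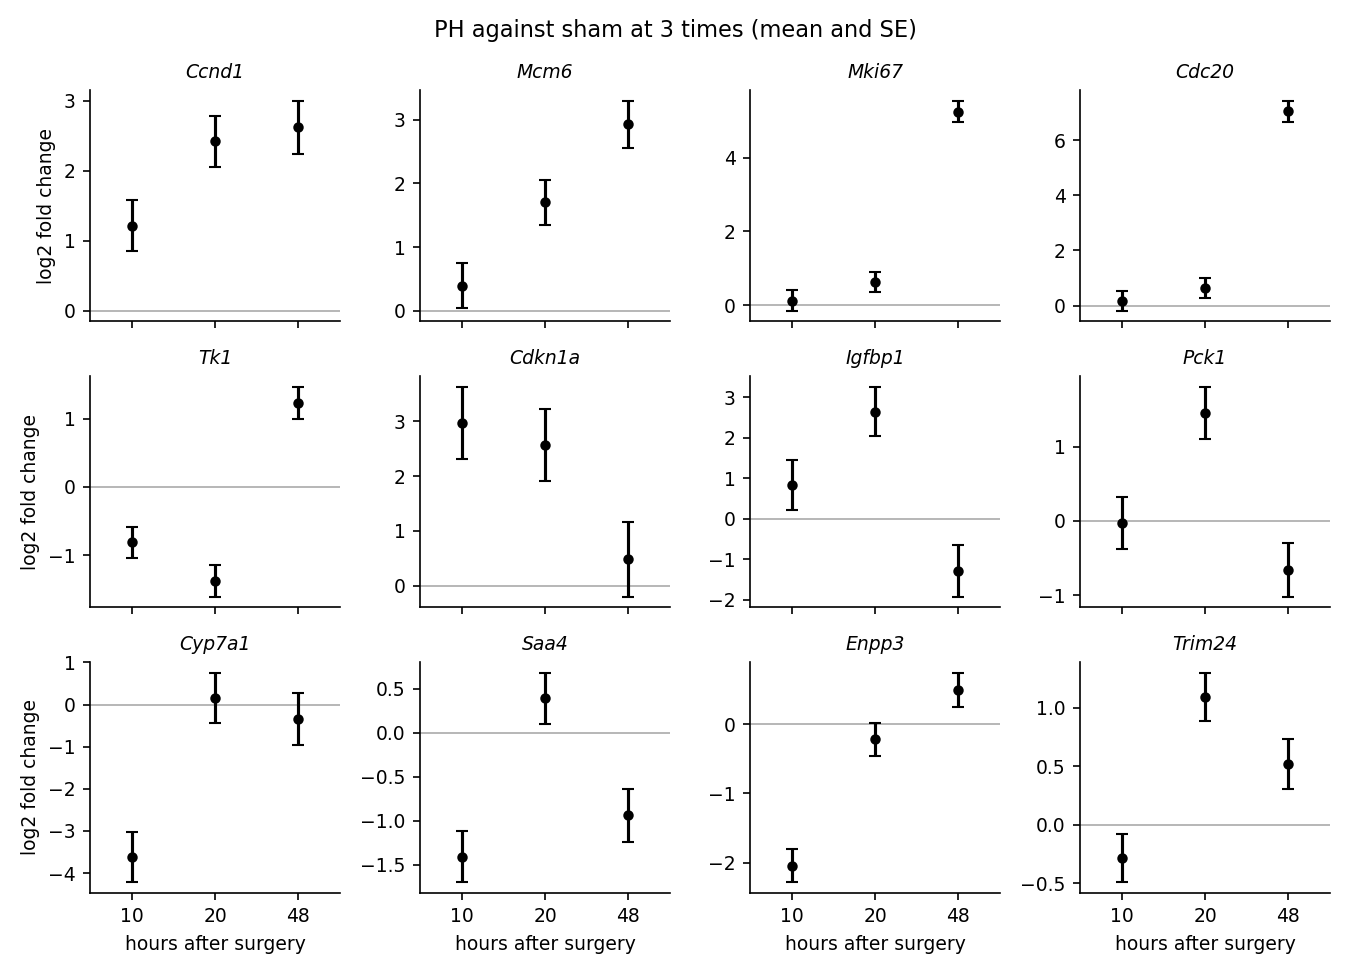
Log2 fold change of PH against sham at 10, 20 and 48 h for selected genes, with bars for the standard error of the limma fit (6 against 3 livers at 10 and 20 h, 5 against 3 at 48 h). Cdc20 lies at 0.18, 0.62 and 7.04 and Ccnd1 at 1.22, 2.42 and 2.62.

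The resting livers place some of these levels, with the limit that they were collected at another clock time than X20 and S20, so that clock time and surgery cannot be told apart in them. Against C0, Ccnd1 differed by 1.75 in X20 (adjusted p = 1.9e-07) and by -0.67 in S20 (adjusted p = 0.15). Car3 differed by -5.77 in X20 and -2.25 in S20, and Fgb by 1.68 and 0.85. Saa1 differed by 7.71 and 7.67, while Mcm6 differed by 1.80 and 0.10. The adjusted p of Mcm6 was 4.4e-08 in X20 and 0.89 in S20. Some called genes differed from C0 more in S20 than in X20. Among them was Igfbp1, a leading rise, which differed by 0.67 in X20 (adjusted p = 0.22) and -1.97 in S20 (adjusted p = 0.0081). Cps1 differed by 0.25 (adjusted p = 0.15) and -0.60 (adjusted p = 0.015), and Dcn by 0.03 (adjusted p = 0.91) and -0.77 (adjusted p = 0.0014). Egr1 differed by -0.14 in X20 (adjusted p = 0.86) and -2.58 in S20 (adjusted p = 0.0019). Cycs differed by 0.14 in X20 (adjusted p = 0.11) and -0.61 in S20 (adjusted p = 1.5e-06). For Cyp2d40 the values were 0.06 in X20 (adjusted p = 0.77) and 1.05 in S20 (adjusted p = 5.8e-06).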

How the data were processed

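RNA-Seq values of the 6 X20 and 3 S20 livers were analysed within the whole table of 80 libraries in 19 groups. Per the labels, reads were mapped to mm9 with TopHat2 2.0.13 and Bowtie2, handled with SAMtools 0.1.19 and counted with featureCounts. The authors counted reads per Ensembl gene on the transcribed strand, split reads with several positions among them, calculated RPKM and deposited log2 RPKM values for 37991 genes, with genes without reads at the lowest value of the file. Division by the library total means that changes of abundant transcripts shift all others. Of 84 columns, 4 match no labelled sample and were not used. Genes above -1.5 (log2 RPKM) in at least 1 library were kept (15396). Depth was estimated from the smallest steps of RPKM times exon length, and symbols are those of the table, joined to mm9 positions for 37205 genes.

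Differences of group means on the log2(RPKM + 0.25) scale were tested in R 4.3.3 with limma 3.58.1 (empirical Bayes with a mean trend, 1 coefficient per group, all libraries), with Benjamini-Hochberg adjustment over the 15396 genes of a comparison. Same-numbered X20 and S20 livers did not deviate together (r = 0.013, -0.013 and 0.012), so they were not treated as pairs. No libraries were copies: for the median gene, the lowest squared difference of a pair exceeded counting error 2.83 times. The procedure was tested on simulated data.

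Genes named are the 12 largest rises and the 12 largest falls among called genes without overlap. These had a mean log2 RPKM above 0 in a group. Also named are up to 5 called members with the smallest adjusted p in each list, and some of the genes the study names. Members of lists without a call were to be named by level, but are left out. One of the 12 falls is not reported here. Other genes shown beside them, such as list members that were not called, were chosen after their values were seen. The members, lists and tests were chosen with earlier results of these data known. Promoter sequences are from RefSeq (GRCm38.p6). Figures were drawn with matplotlib 3.10.9 in Python 3.11.15. Alternatives were pseudocounts of 1 and 0.05, other filters, the same median, 9 libraries alone, a replicate block, robust variances, a fold threshold of 1, X20 replicates 1 to 3 or 4 to 6 and each liver left out.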

Additional observations from a re-analysis of the deposited data

Results flagged for a closer look

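In 7 of the 156 genes with values shown, 1 X20 liver stood apart from the other 5 by more than Dixon's 95% limit for 6 samples on the log2(RPKM + 0.25) scale, which chance alone does in about 1 of 20 groups. Cps1 was highest in replicate 4 at 957 RPKM, Mir343 in replicate 4 at 0.492 RPKM (0 in the other 5), Dnajb1 in replicate 1 at 9.20 RPKM, Myc in replicate 3 at 3.69 RPKM, Pdgfra in replicate 6 at 1.65 RPKM and Spc25 in replicate 6 at 2.01 RPKM. Mup3 was lowest in replicate 6 at 2998 RPKM.

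The PH-to-sham difference was itself different at 20 h than at 10 h for 16 genes. As 20 h minus 10 h on the log2 scale, the values of those named were 3.79 for Cyp7a1, 1.83 for Enpp3, 1.80 for Saa4, 1.65 for Dnajc12, 1.38 for Trim24, 1.23 for Lgr5 and -1.41 for Cbfa2t3.

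It was different at 48 h than at 20 h for 2032 genes. As 48 h minus 20 h, the values were 6.42 for Cdc20, 6.15 for Ccnb2, 5.71 for Plk1, 4.62 for Mki67, 2.61 for Tk1, 2.15 for Rbl1, -2.11 for Pck1 and -3.93 for Igfbp1.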

How the results depend on the processing

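The 1094 genes called in X20 against S20 (692 higher, 402 lower) became 640 with a pseudocount of 1 (365 higher), 675 with the spread estimated from the 9 libraries alone (417 higher, 258 lower, with 58 of the 124 called genes with values shown no longer called) and 262 beyond a log2 fold change of 1 (138 higher, 124 lower). With the same median 447 were higher. PH replicates 1 to 3 alone gave 1063 higher and replicates 4 to 6 alone 429 higher. Leaving out 1 liver gave 625 to 1186 called, 364 to 847 higher and 259 to 424 lower, with the lowest counts of calls and rises without S20 replicate 1. Of the 124 genes 70 stayed called in all 9 of these fits. Between 20 h and 10 h the 16 genes became 25 with a pseudocount of 1 and 8 with 0.05, and between 48 h and 20 h the 2032 became 768 beyond a log2 fold change of 1. The causes of these changes were not tested, other than that the stricter fold threshold keeps fewer genes by construction.

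With the replicate number as a block, 0 genes were called by limma (0 higher and 0 lower), with 4438 at an unadjusted p below 0.05. X20 replicates 4 to 6 have no S20 liver of their number and do not contribute to that fit, and the numbers were not found to pair the livers.

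With 3 sham livers from 1 session, modest changes of single genes often rest on 1 library. The part of depth in genes at low RPKM was not tested.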
